A study of Mus musculus with 26 samples.

Results

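The clustered histone genes of the mouse were followed through cortex RNA after an experimental stroke. Members are the genes named Hist1h, Hist2h, Hist3h or Hist4 (newer names H1f1 to H1f5, H2ac, H2bc, H3c and H4c), pseudogenes named -ps left out. By this rule 61 of the 39179 genes in the count tables are members, 49 of them in the Hist1 cluster, 9 in Hist2, 2 in Hist3 and 1 in Hist4. They are 6 genes of the linker histone H1 and, for the core histones, 20 H2A, 15 H2B, 7 H3 and 13 H4 genes. GENCODE M21 lists 2 of the H2A genes, Hist1h2aj and Hist1h2al, as pseudogenes, and neither passed the filter on low counts. Another 8 genes that carry such names (Hist1h2bh, Hist1h2bm, Hist1h3d, Hist1h3f, Hist1h3g, Hist1h3h, Hist1h3i and Hist2h2bb) were not analysed here.

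C57BL/6J mice, an inbred strain often used for diet studies, ate a diet with 60% of its calories from fat (high-fat) or one with 6% (control) before focal ischemia or a sham operation. Cortex was taken 3 days after surgery, in stroke mice as the core with a rim of surrounding tissue. After 6 weeks of feeding there were 4 stroke and 3 sham libraries from control-fed mice, and 6 stroke and 3 sham from mice fed the high-fat diet. After 15 weeks there were 4 stroke libraries from control-fed and 6 from high-fat-fed mice, and sham cortex of that age was not analysed here. No transgene or deletion is named for any group. The labels do not say that each library is a separate animal, so p-values below measure the spread between libraries.

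Most histone protein that packs newly copied DNA comes from these genes. Core histones H2A, H2B, H3 and H4 form the spool of the nucleosome and H1 binds the linker DNA beside it. Their genes have no introns and are switched on as a cell copies its DNA in S phase. Their mRNAs normally end not in a poly(A) tail but shortly after a small stem-loop, which is bound by the stem-loop binding protein Slbp, and they are degraded when S phase ends. Some of the genes also give longer, polyadenylated transcripts in cells that no longer divide, such as neurons. The libraries were made from total RNA, so that transcripts of both kinds can be counted.

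The stem-loop letters were searched on the transcript strand as GG, any 2 bases, CTTTT, any base, AG, any 2 bases and CC. They were found in 40 of the 61 members, against 89 of 55450 genes (0.161%) of the GENCODE M21 transcript set. In that set, 20 member models ended within 60 bases of the motif, 1 (Hist1h3c) ended 74 bases after it, and 19 ran on for more than 100 bases. The other 21 models held no match, and a model that ends at its stop codon cannot hold one. The windows of the 3 members with large stroke changes in H3 and H2B, of the 1 member that fell and of the 3 most abundant H4 genes are shown, with the motif in capitals, as examples picked by change or level.
Hist1h3c: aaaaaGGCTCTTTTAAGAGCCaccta
Hist1h3b: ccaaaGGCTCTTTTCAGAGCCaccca
Hist1h2bk: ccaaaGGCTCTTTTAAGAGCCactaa
Hist3h2ba: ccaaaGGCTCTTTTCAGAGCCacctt
Hist1h4h: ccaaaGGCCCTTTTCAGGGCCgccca
Hist1h4c: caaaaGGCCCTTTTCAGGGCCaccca
Hist1h4d: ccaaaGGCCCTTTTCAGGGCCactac
The first arm of the stem read GGCTC in all 29 motif-bearing members of H1, H2A, H2B and H3. It read GGCCC in 9 H4 genes and GGTCC in the other 2 H4 genes with the motif, so the stem letters separated H4 from the other classes. The windows of Hist1h3b and Hist3h2ba share the same motif letters. After stroke on the control diet the former rose and the latter fell. Their models end 51 and 169 bases after the motif. This is 1 pair picked by its changes, and a link between the model's end and the direction of change was not tested. On the control diet 14 of 16 tested members with models ending within 60 bases were above 0, and 11 of 17 with models running on for more than 100. Among all 48 tested members 39 were above 0, and among all genes 50.6%.

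RefSeq promoter windows of build GRCm38.p6, 250 bases before to 50 bases after the start, matched 55 of the 61 members. Hist1h2ao and Hist1h2ap matched the same RefSeq entry, so that 54 distinct windows were counted. Motifs were searched on both strands. The CCAAT box was in 45 of the 54 (83.3%), against 37.4% of all 32851 promoter windows, and the TATA letters TATAAA were in 32 (59.3%, against 13.6%). The octamer ATTTGCAT, known from H2B promoters, was in 11 (20.4%, against 1.74%), namely in 7 of 17 H2A and 4 of 13 H2B windows. All H1, H2A, H2B and H3 windows held CCAAT, but only 3 of 12 H4 windows did. A match is a string of letters and no measured site. The windows of Hist1h3c (chr13:23745472-23745771, minus strand), Hist1h2bk (chr13:22035571-22035870, plus strand), Hist1h2ak (chr13:21753863-21754162, minus strand) and Hist1h4d (chr13:23581318-23581617, plus strand) are given to show these classes side by side, with each match of the CCAAT box, the TATA letters and the octamer, on either strand, in capitals.
Hist1h3c: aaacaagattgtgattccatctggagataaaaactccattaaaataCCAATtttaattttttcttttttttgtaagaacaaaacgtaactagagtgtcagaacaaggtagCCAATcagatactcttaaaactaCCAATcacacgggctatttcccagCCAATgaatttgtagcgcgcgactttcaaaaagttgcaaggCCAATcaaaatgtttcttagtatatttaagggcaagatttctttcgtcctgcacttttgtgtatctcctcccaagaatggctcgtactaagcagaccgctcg
Hist1h2bk: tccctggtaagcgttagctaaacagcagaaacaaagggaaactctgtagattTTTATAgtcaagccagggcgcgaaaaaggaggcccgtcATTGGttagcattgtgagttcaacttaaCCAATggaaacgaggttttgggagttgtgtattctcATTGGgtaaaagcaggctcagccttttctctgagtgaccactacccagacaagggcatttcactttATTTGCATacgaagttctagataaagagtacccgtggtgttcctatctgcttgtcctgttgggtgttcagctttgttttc
Hist1h2ak: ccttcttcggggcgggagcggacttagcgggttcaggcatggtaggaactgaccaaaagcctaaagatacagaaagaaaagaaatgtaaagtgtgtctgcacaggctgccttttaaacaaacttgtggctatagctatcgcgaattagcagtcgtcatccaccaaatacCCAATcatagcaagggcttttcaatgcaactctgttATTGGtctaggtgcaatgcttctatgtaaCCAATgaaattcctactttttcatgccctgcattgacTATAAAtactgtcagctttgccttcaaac
Hist1h4d: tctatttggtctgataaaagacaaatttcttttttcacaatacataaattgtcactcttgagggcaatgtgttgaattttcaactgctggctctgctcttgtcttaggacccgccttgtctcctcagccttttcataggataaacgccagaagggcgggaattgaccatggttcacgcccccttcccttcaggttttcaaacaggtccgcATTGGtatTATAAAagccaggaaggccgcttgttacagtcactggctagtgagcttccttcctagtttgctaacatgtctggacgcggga
Hist1h2ak lies head to head with the H2B gene Hist1h2bn, and their windows share 263 bases. There were 9 such H2A and H2B pairs, sharing between 220 and 279 bases, and both genes were tested in 6 of them.

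Each library had between 11400882 and 16962682 counts in genes, and values are counts per 1000000 of these (CPM). Of the 61 members 48 passed the filter on low counts, and 13 did not. Of the 48, Hist1h2ad, Hist1h2af, Hist1h2an, Hist1h2bp and Hist1h3c had fewer than 10 counts in every sham library, so that they passed only through stroke libraries, and the filter fixed in part that they were higher there. Hist1h2ag, Hist1h2bl and Hist2h3c2 reached 10 counts in too few sham libraries to pass on these alone, so they too needed stroke libraries. Of the 13, Hist2h2aa2, Hist1h2br and Hist2h3c1 had no count in any library, and the others had between 1 and 85 counts over all 26 libraries, with the most in Hist1h2ah. The testis histone genes Hist1h1t, Hist1h2aa and Hist1h2ba were among the 13. Excitatory neuron markers summed to between 1120 and 2000 CPM in every library, as the labelled cortex should show. Histone genes are close copies of each other: in 24 members over 50% of the transcript's 100-base stretches also occur in another gene, so single-gene values are uncertain where fragments could be split. That share was 28.4% in Hist1h3c, 56.6% in Hist1h3b, 70.8% in Hist1h2bk and 0% in Hist1h4d. Between 24.13% and 32.05% of all counts in a table were set aside as not uniquely placed. Exons of 25 members overlap another gene, on the same strand in 6 (among them Hist1h1e with Hist1h2be and Hist3h2a with Trim17), and whether strand was used in counting is not given in the sources used here.

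In sham cortex the H4 genes led the group. Per kilobase of the longest M21 transcript, the mean of both sham groups was 136 CPM per kb for Hist1h4h, 89 for Hist1h4c, 88.1 for Hist1h4d, 65.5 for Hist1h4k and 53.2 for Hist1h4f. The first non-H4 member in this order was the H2B gene Hist3h2ba at 31.8 CPM per kb, followed by the linker histone genes Hist1h1c at 23.3 and Hist1h1e at 23.1. H4 genes together held 58.1% ± 0.308 (SD, n = 3) of all member counts in control-diet sham and 57.8% ± 1.01 (n = 3) in high-fat sham. The H3 genes held 3.46% ± 0.309 and 3.36% ± 0.457 there, the lowest share of any class. The H3 genes Hist1h3d, Hist1h3f, Hist1h3g, Hist1h3h and Hist1h3i are not part of these shares. Neither are the H2B genes Hist1h2bh, Hist1h2bm and Hist2h2bb, so the order of the classes holds for the 61 members only.

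After stroke the make-up of the group shifted away from H4. The H4 share was 48.8% ± 5.13 (SD, n = 4) in 6-week control stroke and 46.8% ± 1.72 (n = 6) in 6-week high-fat stroke, and every stroke library of these groups lay below every sham library. At 15 weeks it was 48.4% ± 5.1 (n = 4) on the control diet and 45.4% ± 6.19 (n = 6) on the high-fat diet. The H3 share was 4.78% ± 0.314 and 6.62% ± 0.633 in 6-week control and high-fat stroke. Shares sum to the whole, so a lower H4 share needs no lower H4 level. H4 genes summed to 352 ± 21.9 CPM (n = 3) in control sham, 336 ± 50.5 (n = 3) in high-fat sham, 336 ± 68.8 (n = 4) in 6-week control stroke and 417 ± 41.4 (n = 6) in 6-week high-fat stroke, with overlap between sham and stroke on each diet.

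**Figure D1:**
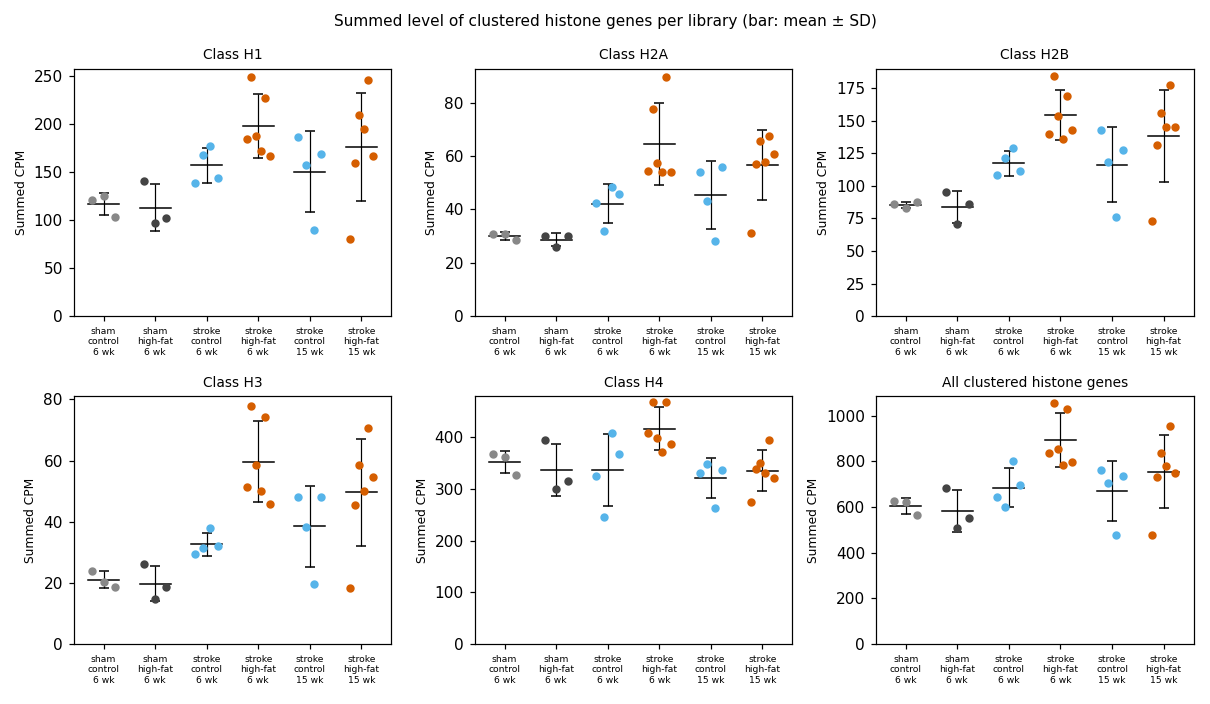
Summed CPM of each histone class and of all 61 members in each of the 26 libraries (points), with the group mean and SD (bars), by surgery, diet and weeks. The H1, H2A, H2B and H3 sums of 6-week stroke lie above those of sham on the same diet, while H4 sums overlap.

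Stroke was compared with sham on the control diet first. Of the 48 tested members 9 rose and 1 fell (edgeR's quasi-likelihood test, adjusted p under 0.05 over all 16325 genes tested), where 5.1% of all genes rose and 2.57% fell. The 9 were 6 genes of H2B, 2 of H3 and 1 of H2A. Of the 13 H4 genes 0 passed edgeR's test, and 0 by DESeq2 and voom, with 2 at an unadjusted p under 0.05 (23.2% of all genes). Of the 5 tested H1 genes 0 passed, with 3 at an unadjusted p under 0.05, while DESeq2 called 2 and voom 3. The median log2 fold change was 0.35 over the members, against 0.00 over all genes, and 39 members were above 0, where 50.6% of all genes were. In 21 members every stroke library lay above every sham library, as in 17% of all genes, and in 1 (Hist3h2ba) every one lay below, as in 9.29%.

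The core histone gene Hist1h3c had the largest change. Its level was 0.547, 0.338 and 0.253 CPM in control sham and 3.2, 4.37, 5.88 and 3.63 CPM in control stroke. The groups did not overlap, and the sham values rest on only 8, 5 and 4 counts. Hist1h3c passed the filter only through stroke libraries, so that this lack of overlap was fixed in part. The log2 fold change was 3.43 ± 0.74 (SE; adjusted p = 0.0085, edgeR).

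Hist1h3b, another H3 gene, was at 0.888, 0.676 and 0.759 CPM in control sham and at 3.69, 7.49, 5 and 3.57 CPM in control stroke. Every stroke library was again above every sham library, with a log2 fold change of 2.63 ± 0.57 (adjusted p = 0.0088, edgeR). The H2A gene Hist1h2af went from 0.478, 0.27 and 0.0633 CPM to 1.32, 1.11, 2.46 and 1.17 CPM, without overlap, and the lowest of these is 1 count. Hist1h2af, too, passed the filter only through stroke libraries. Its log2 fold change was 2.41 ± 0.72 (adjusted p = 0.0412, edgeR). The H2B gene Hist1h2bk was at 0.888, 0.879 and 0.696 CPM in sham and 3.2, 3.19, 3.42 and 2.27 CPM in stroke, a log2 fold change of 1.83 ± 0.48 (adjusted p = 0.0219, edgeR). The other members that rose, all of H2B, were Hist1h2bl (1.82), Hist1h2bn (1.79), Hist1h2bj (1.58), Hist1h2bb (1.19) and Hist1h2bf (1.16), in log2 fold change. Among them Hist1h2bl needed stroke libraries to pass the filter.

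Hist3h2ba, the most abundant H2B gene per length, went the other way. It was at 20.2, 20.6 and 20.4 CPM in control sham and at 16.2, 12.2, 14.6 and 18.5 CPM in control stroke. All stroke libraries were lower than all sham libraries, and the log2 fold change was -0.43 ± 0.13 (adjusted p = 0.0412, edgeR). On the high-fat diet its groups overlapped, at 22.8, 16.5 and 16.6 CPM in sham and between 15.1 and 19.6 CPM (median 17.9) in stroke, with a log2 fold change of -0.19 ± 0.12 (adjusted p = 0.255, edgeR).

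The abundant H4 genes were near their sham level on the control diet. Hist1h4d was at 115, 108 and 90.3 CPM in sham and at 104, 76.7, 119 and 107 CPM in stroke. These ranges overlap throughout (log2 fold change -0.07 ± 0.11, adjusted p = 0.784, edgeR). The log2 fold change was -0.21 ± 0.16 for Hist1h4h (adjusted p = 0.457, edgeR), -0.30 ± 0.13 for Hist1h4c (adjusted p = 0.165) and 0.02 ± 0.19 for Hist1h4k (adjusted p = 0.965). Over all 13 H4 genes the median was -0.04, in a range from -0.30 to 0.26. The smallest changes outside H4 were those of the linker histone gene Hist1h1e (0.01 ± 0.17), Hist2h3b (0.03 ± 0.28) and Hist2h2be (0.03 ± 0.15).

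The count of 10 calls on the control diet rests on few libraries. It was 0 without sham control library 2, 1 without sham control library 3, 2 without sham control library 1 or stroke control library 2, 3 without stroke control library 3 and 2 with the outside-gene fragment share as covariate, against 16 by limma voom and 17 when only the compared groups were fitted. Hist1h3b lost its call only without sham control library 2 (adjusted p = 0.055, edgeR) and Hist1h3c only without sham control library 2 or 3 (adjusted p = 0.0534 without the former). Hist1h2bk lost its call without stroke control library 2 or 3 or any of the 3 sham control libraries (adjusted p up to 0.0992). Hist1h2af and Hist3h2ba each lost theirs whichever library but stroke control library 4 was left out, and Hist3h2ba also with library size as the only scaling (-0.40, adjusted p = 0.0595).

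On the high-fat diet 31 of the 48 members rose after stroke and 0 fell (edgeR; 0 fell at an unadjusted p under 0.05, against 16.5% of all genes, and 0 by DESeq2 or voom), where 14.2% of all genes rose and 8.85% fell. They were 10 of 12 tested H2A genes, 9 of 12 H2B, 5 of 6 H3, 4 of 13 H4 and 3 of 5 H1. All 5 members with fewer than 10 counts in every sham library (Hist1h2ad, Hist1h2af, Hist1h2an, Hist1h2bp and Hist1h3c) were among the 31. So were Hist1h2ag and Hist1h2bl, which also needed stroke libraries to pass the filter. The median log2 fold change was 0.91 against -0.02 over all genes. In 32 members every stroke library lay above every sham library, as in 20.8% of all genes. All 9 members that rose on the control diet were among the 31 (100% of the first list and 29% of the second). The 2 comparisons share no library, but they share the fit, its estimate of the spread and the filter. The same overlap over all genes was not computed, so that this overlap is a description only.

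Hist1h3c was at 0.416, 0.276 and 0.334 CPM in high-fat sham (6, 4 and 5 counts) and between 6.91 and 13.6 CPM (median 8.36) in the 6 high-fat stroke libraries. The lowest stroke library was far above the highest sham library, which was fixed in part because Hist1h3c passed the filter only through stroke libraries. The log2 fold change was 4.67 ± 0.71 (adjusted p = 0.000282, edgeR). Hist1h3b went from 1.11, 0.551 and 0.534 CPM to between 8.14 and 13.1 CPM (median 9.62), a log2 fold change of 3.66 ± 0.55 (adjusted p = 0.000282, edgeR).

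Hist1h2af followed with a log2 fold change of 3.45 ± 0.66 and Hist1h2bk with 3.13 ± 0.48 (adjusted p = 0.000919 and 0.000282, edgeR). Among the linker histones Hist1h1b rose by 1.82 ± 0.41, Hist1h1a by 1.19 ± 0.30 and Hist1h1d by 0.93 ± 0.26 in log2 fold change. The more abundant linker genes Hist1h1c (0.57 ± 0.22, adjusted p = 0.0588) and Hist1h1e (0.34 ± 0.16, adjusted p = 0.133) did not pass edgeR's test, though voom called both (adjusted p = 0.00259 and 0.00822) and DESeq2 called Hist1h1c (adjusted p = 0.0319).

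Hist1h1d was at 20.1, 14.5 and 16.4 CPM in high-fat sham and between 30.3 and 41.7 CPM (median 32.2) in high-fat stroke, without overlap. In control sham and stroke it was at 16.1, 16.6 and 14.4 and at 22.9, 29.8, 31.1 and 23 CPM, also without overlap, yet its adjusted p there was 0.106 (edgeR; log2 fold change 0.73 ± 0.28).

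The 4 H4 genes that rose on the high-fat diet were Hist1h4j (1.18 ± 0.30), Hist1h4b (0.90 ± 0.20), Hist1h4a (0.60 ± 0.17) and Hist1h4f (0.48 ± 0.15), in log2 fold change. The leading H4 genes were near 0. Hist1h4c had a log2 fold change of 0.01 ± 0.12 and Hist1h4h one of -0.01 ± 0.14, and the adjusted p of Hist1h4d (0.22 ± 0.11) was 0.136 in edgeR's test and 0.0203 by voom. Hist2h2be (-0.02 ± 0.14) and Hist3h2a (-0.08 ± 0.14), an H2A gene of the Hist3 cluster, also stayed within 1 SE of 0. Without sham high-fat library 2 the count of members that rose was 19, and it was also 19 without the 2 libraries highest in choroid plexus markers, stroke high-fat library 6 and sham high-fat library 2 (marker sums of 928 and 258 CPM, against at most 77.6 CPM elsewhere), and 20 with the outside-gene fragment share as covariate. Leaving out each of the 9 libraries in turn, 19 of the 31 calls held every time, Hist1h3c, Hist1h3b, Hist1h2af and Hist1h2bk among them. Of the 4 H4 calls only that of Hist1h4b held every time, and Hist1h1d lost its call without sham high-fat library 2 or 3 (adjusted p = 0.09 and 0.051, edgeR).

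**Figure D2:**
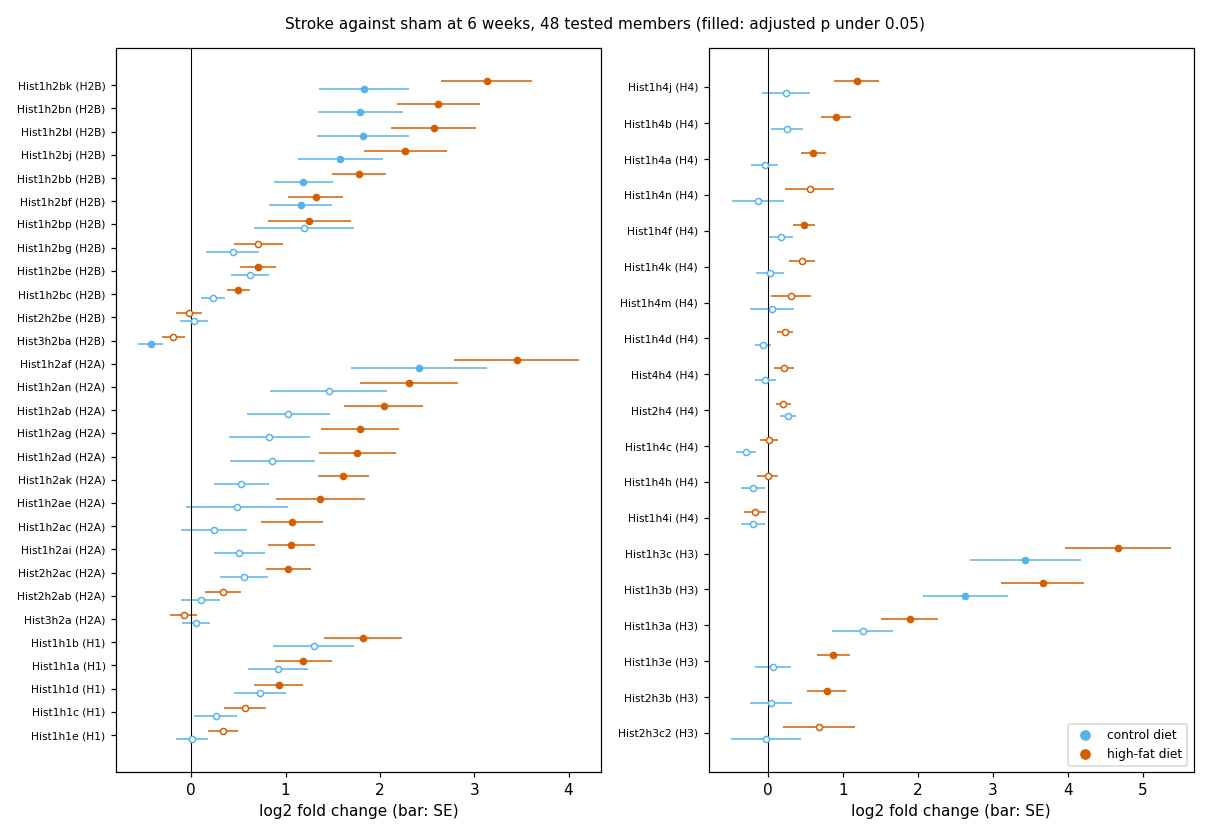
Log2 fold change of stroke against sham at 6 weeks with its SE for the 48 tested members, on the control diet (blue) and the high-fat diet (orange), sorted by class and high-fat change. Filled points passed edgeR's test, and H4 genes lie between -0.30 and 0.26 on the control diet, with 4 of 13 higher and values up to 1.18 on the high-fat diet, while Hist1h3c and Hist1h3b reach 3.43 and 2.63 on the control diet and 4.67 and 3.66 on the high-fat diet.

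The sham level of the members was set against their fold change. To keep the 2 measures on different libraries, the sham level per length on one diet was set against the fold change on the other. Over the 48 members the correlation was -0.61 (Pearson, on the log2 level) and -0.61 (Spearman) for the control-diet change, and -0.61 and -0.63 for the high-fat change. It is a description across genes that share libraries, sequence and a filter on low counts. A member scarce in all groups could not enter it, so the filter fixed part of the relation at low levels. Over the 36 members with at least 10 counts in every sham library, a restriction chosen after seeing the data, it was -0.45 (Pearson) and -0.48 (Spearman) for the control-diet change, and -0.41 and -0.42 for the high-fat change.

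**Figure D3:**
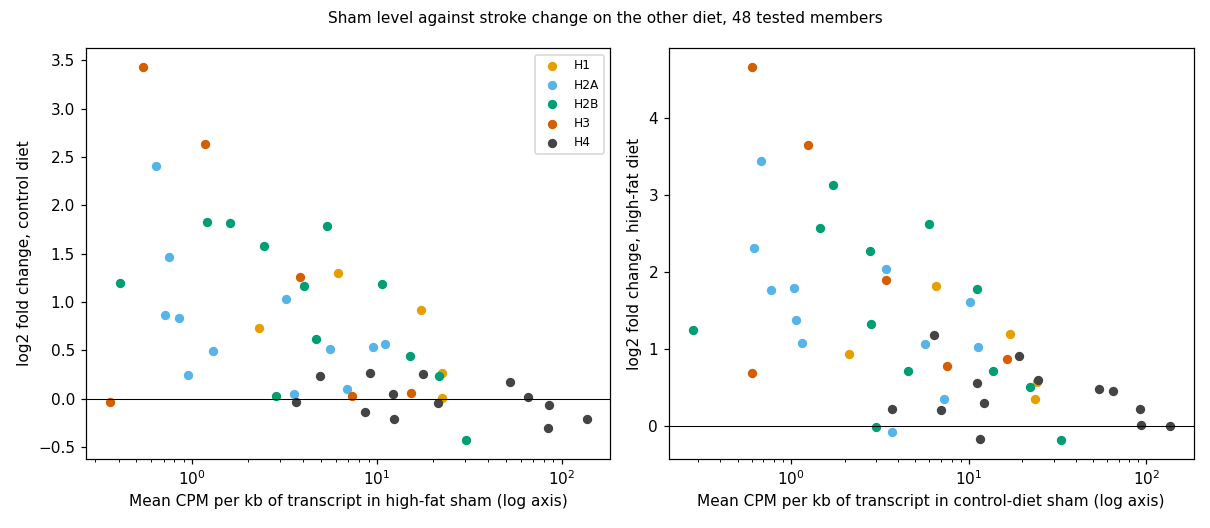
Mean CPM per kb of transcript in sham cortex of one diet (log axis) against the log2 fold change of stroke on the other diet, for the 48 tested members coloured by class. Points fall from upper left to lower right, with Hist1h3c and Hist1h3b at the upper left and the leading H4 genes at the lower right.

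The changes also differed with the length of the annotated transcript beyond the stem-loop. The 16 tested members whose models end within 60 bases of it had medians of 0.94 (control diet) and 1.54 (high-fat diet) in log2 fold change, with 5 and 13 of them higher. The 17 tested members whose models run on for more than 100 bases had medians of 0.06 and 0.57, with 0 and 6 higher and Hist3h2ba lower on the control diet. The 14 without a match had medians of 0.52 and 1.13, with 3 and 11 higher. Over all 48 tested members 9 and 31 rose, where 5.1% and 14.2% of all genes did. Class and sham level go along with this split in part (Hist1h4c and Hist1h4d have long models), and the part of either was not tested. Hist1h4h, the H4 gene with the highest sham level, has a model that ends 46 bases after the motif, and it was not called on either diet.

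Both genes of a head-to-head pair were set side by side. Hist1h2ak and Hist1h2bn, which share 263 bases of their windows, had log2 fold changes of 0.53 and 1.79 on the control diet and 1.61 and 2.62 on the high-fat diet. Hist1h2ai and Hist1h2bl had 0.51 and 1.82, and 1.06 and 2.57. Hist1h2ad and Hist1h2bf had 0.86 and 1.16, and 1.76 and 1.32, Hist1h2ae and Hist1h2bg had 0.49 and 0.44, and 1.37 and 0.71, and Hist1h2an and Hist1h2bp had 1.46 and 1.20, and 2.31 and 1.25. Hist1h2ag and Hist1h2bj had 0.83 and 1.58, and 1.79 and 2.27. All 12 genes of the 6 tested pairs were above 0 in both comparisons. Most members were, 39 and 43 of the 48, among them 12 and 11 of the 12 tested H2A and 11 and 10 of the 12 tested H2B genes. Of all genes 50.6% and 47.1% were above 0. Among the paired genes Hist1h2ad, Hist1h2ag, Hist1h2an, Hist1h2bl and Hist1h2bp needed stroke libraries to pass the filter, which fixed their direction in part. Differences within a pair were not tested.

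**Figure D4:**
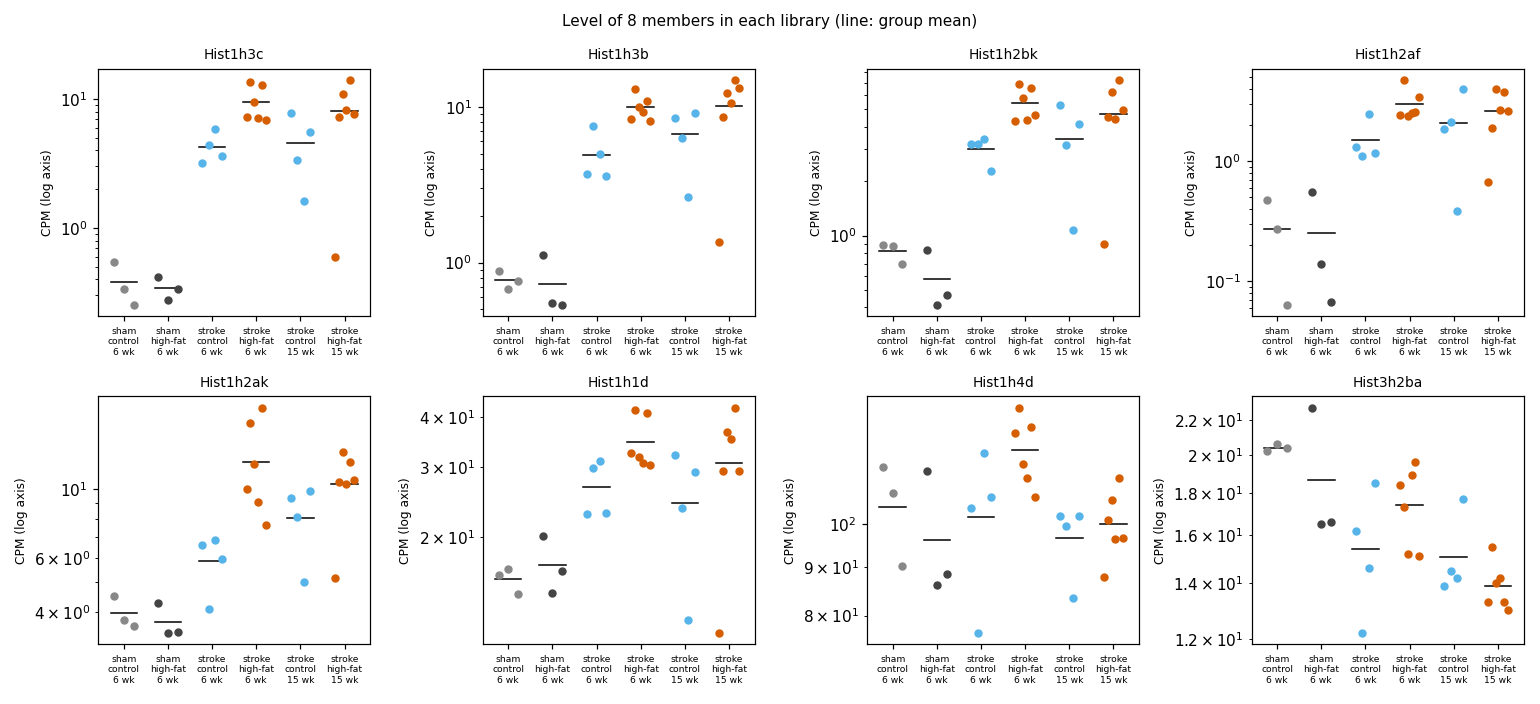
CPM of 8 members in each of the 26 libraries on a log axis, with the group mean as a line. The first 4 lie well above sham in 6-week stroke, Hist1h2ak and Hist1h1d less so, and Hist1h4d and Hist3h2ba stay within a narrow band.

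Other genes of DNA copying and cell division were read from lists chosen by function. Over all genes 5.1% rose on the control diet and 14.2% on the high-fat diet. Of 24 genes of DNA replication and S phase, 8 rose on the control diet and 21 on the high-fat diet, with median log2 fold changes of 0.79 and 1.01. Mcm6, a subunit of the replicative helicase, rose by 1.46 ± 0.32 and 1.94 ± 0.31. All 18 genes of mitosis rose on both diets, with medians of 2.99 and 3.64, among them the proliferation marker Mki67 (4.15 ± 0.65 and 4.46 ± 0.63) and the topoisomerase gene Top2a (3.79 ± 0.63 and 4.65 ± 0.65).

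Genes of the machinery that makes and degrades histone mRNA gave few calls. Of 18 such genes, 0 passed on the control diet (2 had an unadjusted p under 0.05), and on the high-fat diet 0 rose and 2 fell, the cleavage factors Cstf2 (-0.17 ± 0.06) and Cstf2t (-0.21 ± 0.06). Their median log2 fold changes were 0.02 and -0.02. Over all genes 5.1% rose and 2.57% fell on the control diet, and 14.2% and 8.85% on the high-fat diet. Of 19 histone chaperones, which carry histones to DNA, 2 rose and 1 fell on the control diet (Chaf1b 2.43, Asf1b 2.23 and Hira -0.26 in log2 fold change), and 5 rose and 1 fell on the high-fat diet. Of 11 histone variant genes outside the clusters, 0 passed on the control diet (4 had an unadjusted p under 0.05). On the high-fat diet 4 rose, the centromere histone Cenpa (1.96), the DNA damage variant H2afx (0.69), and the H3.3 genes H3f3a (0.28) and H3f3b (0.26).

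Markers of other cells moved with stroke as well. For comparison, 5.1% of all genes rose and 2.57% fell on the control diet, and 14.2% and 8.85% on the high-fat diet. The 5 microglia markers summed to between 236 and 279 CPM in the 6 sham libraries and to between 467 and 853 CPM in the 10 stroke libraries of the 6-week arm, and all 5 rose on both diets. The 5 monocyte or macrophage markers summed to between 8.82 and 13.5 CPM in sham and between 59.2 and 342 CPM in stroke, with 3 higher on the control diet and 5 on the high-fat diet, and Ly6c2 was at 0 in high-fat sham. The 5 oligodendrocyte precursor markers summed to between 114 and 135 CPM and between 144 and 208 CPM, with 0 and 5 higher. Astrocyte markers summed to between 892 and 1030 CPM in sham and 1520 and 2030 CPM in stroke (2 and 3 of 5 higher), and endothelium markers to between 131 and 160 and between 179 and 255 CPM (1 and 4 higher). Fibroblast and meninges markers summed to between 28.7 and 38.4 and between 63.5 and 191 CPM (0 and 3 higher), and neutrophil markers to between 3.67 and 4.68 and between 8.82 and 22 CPM (0 and 3 higher). All of these sums were without overlap, while those of inhibitory neuron, oligodendrocyte, T cell, B cell, choroid plexus and erythroid markers overlapped (all 5 erythroid markers and 1 of B cells rose on the high-fat diet). Excitatory neuron markers summed to between 1530 and 2000 CPM in sham and 1270 and 1550 CPM in stroke, with 0 lower on the control diet and 2 on the high-fat diet. Their part in the histone changes was not tested, and in bulk tissue a change in the number of cells of a type and a change in RNA per cell cannot be told apart. The share of fragments outside genes was also lower in 6-week stroke, at between 25.8% and 32.6%, than in sham, at between 33.1% and 37.8%.

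Whether stroke acted differently on the 2 diets was tested as surgery by diet. None of the 48 members passed (0% of all genes were called), and 5 had an unadjusted p under 0.05, all with a larger change on the high-fat diet, where 2.72% of all genes had one with a larger change there. DESeq2 and voom also called 0 members. The lowest adjusted p was 0.832. Members with the smallest p were Hist1h2ak (log2 difference 1.07 ± 0.39), Hist1h4a (0.65 ± 0.24), Hist1h3e (0.80 ± 0.32) and Hist1h4b (0.65 ± 0.29). The difference was above 0 in 45 of 48 members with a median of 0.54, against 51.4% of all genes and a median of 0.01. The larger number of calls on the high-fat diet is thus no tested difference between diets, and that comparison had more stroke libraries.

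In 6-week stroke cortex the high-fat diet was compared directly with the control diet. No member passed (0% of all genes were called, the lowest adjusted p of a member was 0.667, and DESeq2 and voom called 0). At an unadjusted p under 0.05 stood 29 of the 48 members, all higher on the high-fat diet, where 2.98% of all genes were higher at that level. The median was 0.48 against -0.01 over all genes, and 45 members were above 0, where 48.5% of all genes were. In 13 members every high-fat library lay above every control library, as in 1.37% of all genes. The members share libraries and sequence, so that these counts are not counts of independent genes.

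Hist1h2ak, an H2A gene, had the smallest p. It was at 6.62, 4.1, 6.84 and 5.96 CPM in control stroke and between 7.63 and 18.3 CPM (median 11) in high-fat stroke. The groups did not overlap, and the log2 fold change was 1.02 ± 0.23 (unadjusted p = 0.00019, adjusted p = 0.667, edgeR's quasi-likelihood test over all genes). Next came Hist2h4 (0.35 ± 0.09), the H3 gene Hist1h3e (0.72 ± 0.20) and Hist1h4b (0.57 ± 0.17), all 3 with an adjusted p of 0.667.

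Hist1h3e was at 13.9, 12.1, 16.5 and 16.1 CPM in control stroke and between 20.3 and 32.5 CPM (median 22.6) in high-fat stroke, again without overlap. In sham cortex it was at 15.3, 13.1 and 12.7 CPM on the control diet and 17, 8.89 and 12.3 CPM on the high-fat diet, which overlap with each other and with control stroke. The S phase list had 0 of 24 genes at an unadjusted p under 0.05 in this comparison (median 0.29) and the mitosis list 2 of 18 (median 0.49). Microglia markers summed to between 467 and 761 CPM in control and 619 and 853 CPM in high-fat stroke, and monocyte or macrophage markers to between 59.2 and 226 and between 115 and 342 CPM. Their part in the diet values was not tested.

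**Figure D5:**
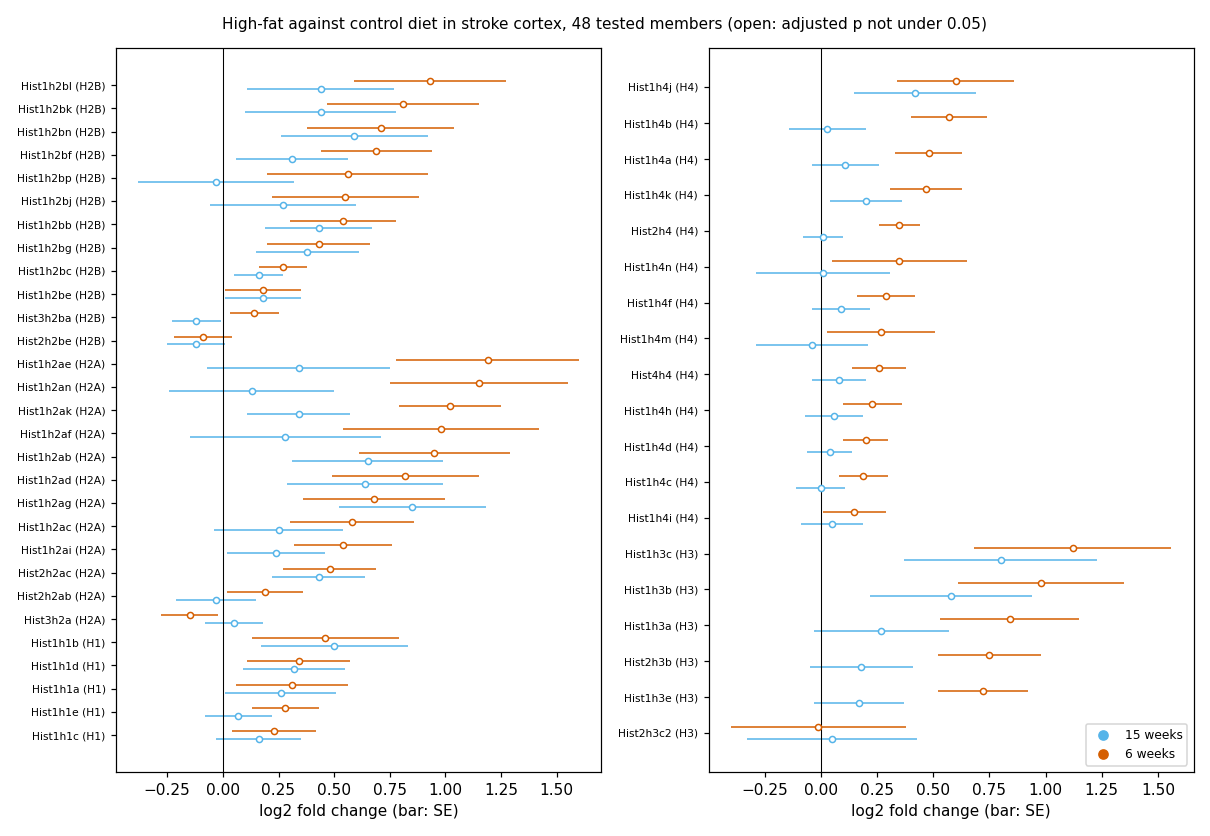
Log2 fold change of the high-fat against the control diet in stroke cortex with its SE for the 48 tested members, after 6 weeks (orange) and 15 weeks (blue). No point passed the test, 45 members were above 0 at 6 weeks (48.5% of all genes) and 42 at 15 weeks (50.4%), and the median was 0.48 at 6 weeks and 0.19 at 15 weeks.

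At 15 weeks the median diet difference over members in stroke was 0.19, and the groups overlapped in all 48, where in 0.288% of all genes every high-fat library lay higher and in 1.07% lower. No member passed (0% of all genes were called, and DESeq2 and voom called 0 members), and 2 had an unadjusted p under 0.05, against 7.95% of all genes. All members summed to 671 ± 131 CPM (SD, n = 4) on the control diet and 755 ± 158 CPM (n = 6) on the high-fat diet. The 4 members with the smallest p were Hist1h2ag (0.85 ± 0.33), Hist2h2ac (0.43 ± 0.21), Hist1h3c (0.80 ± 0.43) and Hist1h2ab (0.65 ± 0.34), in log2 fold change. Hist1h3c was at 7.76, 3.37, 1.62 and 5.59 CPM on the control diet and between 0.599 and 14.1 CPM (median 7.91) on the high-fat diet.

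The low ends of both groups come from 1 library each. Stroke control library 3 and stroke high-fat library 1 of the 15-week arm held 476.9 and 477.2 CPM of member counts, below all 6 sham libraries (between 507 and 685.5 CPM), while the other 8 libraries held between 706 and 955.6 CPM. Their microglia markers summed to 341 and 299 CPM, against 659 to 966 CPM in the other 8, and their monocyte or macrophage markers to 45.6 and 25 CPM, against 215 to 540 CPM. Without both libraries the count of called members was again 0.

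The difference between the diet effects at 15 and 6 weeks was above 0 in 5 of 48 members and 50% of all genes, with a median of -0.24 against -0.00 over all genes. None passed (0% of all genes, and 0 members by DESeq2 or voom), 3 had an unadjusted p under 0.05, and those were Hist2h4 (-0.34 ± 0.13), Hist1h4b (-0.54 ± 0.24) and Hist1h2ak (-0.68 ± 0.32), against 4.85% of all genes. A weaker diet difference at 15 weeks was thus not shown.

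In sham cortex the diet gave no called member (0% of all genes, and 0 members by DESeq2 or voom), and 1 had an unadjusted p under 0.05, against 4.79% of all genes. It was Hist2h4, an H4 gene of the Hist2 cluster, at 11.8, 11 and 11.4 CPM on the control diet and 16.5, 14.3 and 13.8 CPM on the high-fat diet. The groups did not overlap, but the adjusted p was 0.965 (log2 fold change 0.41 ± 0.12, edgeR). Every high-fat library lay above every control library in 2 of the 48 members and below in 2. The share over all genes is not given here, so this lack of overlap is a description only. The median over members was -0.04 and turned to 0.12 without sham high-fat library 2, and all H3, H2A and H2B sums overlapped between the diets.

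Stroke libraries of 15 and 6 weeks were compared on each diet, where time on the diet cannot be told apart from age. In control-fed mice 0 of 48 members passed and 0 had an unadjusted p under 0.05 (0.564% and 16.8% of all genes), with a median of 0.03, and DESeq2 and voom called 0 as well. On the high-fat diet the H4 gene Hist1h4c was lower at 15 weeks, where 1.62% of all genes were. It was at between 66.7 and 86.7 CPM (median 70) in the 6 libraries of the 6-week group and between 48.6 and 63.8 CPM (median 52.8) in the 6 of the 15-week group. The groups did not overlap, as in 2% of all genes in this direction, and the log2 fold change was -0.44 ± 0.10 (adjusted p = 0.0241, edgeR).

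The other members with the smallest p were Hist1h4f (-0.36 ± 0.12), Hist3h2ba (-0.30 ± 0.10) and Hist1h4d (-0.24 ± 0.09), which did not pass (adjusted p between 0.0952 and 0.145). Over all 48 members the median was -0.23, against 0.01 over all genes, and 6 were above 0, where 51.8% of all genes were. All 13 H4 genes were below 0, from -0.44 to -0.19, and below 0 also with each other scaling tried. Over all libraries the H4 median of -0.25 was close to those of H3 (-0.27) and H2A (-0.23), and 0 of 12 H2B genes were above 0. The 15-week high-fat group includes library 1, whose H3 sum was 18.34 CPM, against 45.41 to 70.54 CPM in the others. Its H4 sum was 274.2 CPM, against 320.9 to 394.6 CPM in the others. Whether the classes stay alike without this library was not tested. With 1 library left out at a time, the median over all members ranged from -0.29 to -0.12. The S phase list had a median of 0.22 and the mitosis list one of 0.31. The call of Hist1h4c was lost without any of 4 libraries (6-week high-fat libraries 2 and 5, 15-week high-fat libraries 3 and 4, adjusted p from 0.0534 to 0.0744) and with the outside-gene fragment share as covariate (-0.35, adjusted p = 0.689). That share was 30.6% ± 1.3 at 6 weeks and 38% ± 4.24 at 15 weeks on the high-fat diet (SD, n = 6 each).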

How the data were processed

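Total RNA of 26 mouse cortex libraries was sequenced as stranded paired-end libraries, per the labels' protocols. The submitters' processing notes name Trim Galore, STAR, featureCounts, HTSeq and the build mm9, without role or version, and the annotation is not given in the sources used here. Each deposited table gives raw counts by Ensembl identifier, and the authors had applied no normalization to them. Entries that name no gene held between 45.69% and 58.16% of counts per library and were left out. A table of identifiers and symbols matched 37607 of the 39179 genes.

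Genes passed filterByExpr with a minimum count of 10 (16325 genes). After TMM scaling, edgeR 4.0.16 fitted a mean for each of the groups to the 26 libraries (robust quasi-likelihood, R 4.3.3), with Benjamini-Hochberg adjustment over all genes at 0.05. The common dispersion was 0.0184, and the chi-square per degree of freedom between libraries of the same group was 3.343 to 70.19, where counting error alone gives about 1. The SE is the log2 fold change divided by the square root of F. CPM is counts per 1000000 counts in genes. Genes with about 10 counts per library are measured coarsely, so small changes of low members are not detectable at this depth.

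Named members were the 3 most abundant tested members per class, up to 4 called members per direction with the largest change and up to 4 with the smallest change in each stroke comparison, the 4 with the smallest p in every other comparison, every called member where 5 or fewer were called, and up to 4 of the most abundant genes of each other list. The other H2B genes that rose, the linker genes Hist1h1a and Hist1h1b, the H4 genes that rose on the high-fat diet, members of head-to-head pairs, and the called chaperone and variant genes were named after their values were seen. Members and gene lists were chosen with earlier results of these data known. Alternatives were RLE factors, library size alone, DESeq2 1.42.0, voom with quality weights (limma 3.58.1), no filter, a minimum count of 30, only the groups compared, leaving out 228 genes of mitochondria, ribosomal RNA and haemoglobin, class sums, and each library left out. Leaving out sets of libraries and the covariate were chosen after seeing the data.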

Additional observations from a re-analysis of the deposited data

Results flagged for a closer look

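In groups of 4 to 6 libraries, 12 values out of 140 sets of values checked lay far from the rest of their group by Dixon's criterion, where chance flags about 1 in 20 groups. Stroke control library 3 of the 15-week arm was low in 3 H4 genes, at 7.54 CPM for Hist1h4b (the others at 12.5 to 12.7), 83.5 CPM for Hist1h4d (99.5 to 102) and 2.62 CPM for Hist1h4j (6.47 to 6.72). Stroke high-fat library 1 of the 15-week arm was low in Hist1h2ak at 5.17 CPM (10.4 to 13.2), in Hist2h2ac at 6.06 CPM (12 to 14.7) and in the H2A sum at 31.1 CPM (56.9 to 67.4). These are the 2 libraries of the 15-week arm with the lowest microglia and monocyte marker sums.

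In the 6-week arm stroke control library 3 was high in Hist1h2af at 2.46 CPM (1.11 to 1.32) and Hist1h2ag at 1.32 CPM (0.766 to 0.847), and stroke control library 2 was low in Hist2h2ac at 5.02 CPM (9.92 to 10.4). Stroke high-fat library 2 was high in Hist1h2an at 3.02 CPM (0.856 to 1.59). Stroke high-fat library 6, which had the highest choroid plexus marker sum at 928 CPM, was low in Hist2h3b at 3.49 CPM (6.51 to 8.29). Stroke control library 4 of the 15-week arm was high in Hist3h2ba at 17.7 CPM (13.9 to 14.5).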

How the results depend on the processing

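For stroke on the control diet the count of called members, 10 as reported, was 16 by voom, 17 with only the groups compared and 2 with the outside-gene fragment share as covariate. It ranged from 0 to 10 when 1 library was left out. On the high-fat diet the count of 31 became 19 without both libraries high in choroid plexus markers and 20 with the covariate, and ranged from 19 to 34. For 15 against 6 weeks on the high-fat diet the count of 1 became 2 by voom, 3 with only the groups compared and 0 with the covariate, and ranged from 0 to 1. The counts of 0 in the other 6 comparisons stayed 0 in every alternative run.

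Of 1274 values of 66 named changes under alternatives, 1172 kept direction and side of the threshold, 43 lost and 15 gained a call, and 44 changed sign. Sign changes were of log2 fold changes near 0. On the control diet Hist1h1e was -0.01 without a filter and, with the covariate, -0.04, while Hist1h3e was -0.02, Hist2h2be -0.04 and Hist2h3b -0.07 with it. By voom Hist1h4d was 0.01 and Hist1h4k -0.01. On the high-fat diet Hist1h4c was -0.01 without a filter, -0.00 with a minimum count of 30, -0.01 without the mitochondrial, ribosomal and haemoglobin genes, -0.05 without the choroid plexus libraries and -0.06 with the covariate. Hist1h4h was 0.08 with library size alone, 0.03 by voom, 0.00 with only the groups compared and 0.02 with the covariate, and with library size alone Hist2h2be was 0.07 and Hist3h2a 0.01. Leaving out libraries, control-diet values ranged from -0.10 to 0.07 for Hist1h1e, 0.00 to 0.15 for Hist1h3e, -0.17 to 0.06 for Hist1h4d, -0.12 to 0.22 for Hist1h4k, -0.04 to 0.10 for Hist2h2be, -0.24 to 0.19 for Hist2h3b and -0.05 to 0.13 for Hist3h2a. High-fat values ranged from -0.07 to 0.14 for Hist1h4c, -0.12 to 0.17 for Hist1h4h and -0.17 to 0.09 for Hist2h2be. The cause was not tested.

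The log2 ratio of class sums gives more weight to abundant members than the median does. Fragments set aside as not uniquely placed are missing from these sums as well. On the control diet the ratio was 0.43 for H1 and 0.46 for H2B, against medians of 0.73 and 1.17. On the high-fat diet it was 1.17 for H2A and 0.88 for H2B, against 1.49 and 1.28. No paired analysis was possible because the labels carry no replicate numbers.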
